A study of Mus musculus with 2 samples.

Results

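Conventional type 2 dendritic cells are antigen-presenting cells of the myeloid lineage, and 124 barcodes of the islet suspensions met the rule for them, 64 in the library with gluten and 60 in the library with HC alone, of 15958 barcodes in all. They were chosen by their own measured counts. A barcode had at least 1000 unique molecular identifiers (UMIs, the counted mRNA molecules), at least 200 genes, at most 20% mitochondrial UMIs and less than 10% of its UMIs from the 5 islet hormone genes Ins1, Ins2, Gcg, Sst and Ppy. Of these it held at least 2 UMIs of Cd209a, Clec10a, Mgl2 and Flt3 together and at least 5 of H2-Ab1. It held no UMI of Xcr1, Clec9a, Cd79a, Ms4a1 or Siglech, at most 3 of the complement genes C1qa, C1qb and C1qc, at most 1 of Cd3d, Cd3e and Cd3g, and at most 1 of Fscn1. Levels of these genes are therefore a description of the choice. The islets came from WT NOD mice (strain NOD/ShiLtJ, an inbred strain that develops autoimmune diabetes) at 15 weeks of age. The libraries held islet cells of mice on a diet of 16% HC with 4% gluten, and of mice on 20% HC, an ingredient that the labels do not expand. Both libraries were made with the 10x Genomics single cell 3' v3 kit from handpicked islets, and in each, cells of 3 mice were pooled. With 1 library per diet there was no replicate error and no test across samples, so the intervals below cover counting error only, and preparation, recovery of cells and sequencing cannot be told apart from diet.

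Type 2 conventional dendritic cells take up antigen in tissues, load peptides on MHC class II molecules and present them mainly to CD4+ T cells. In mice they depend on the cytokine receptor Flt3, usually carry Sirpa and Itgax (CD11c) on the surface, and many carry the C-type lectins Cd209a, Clec10a (Mgl1) and Mgl2. In NOD islets, antigen-presenting myeloid cells take up granules of beta cells and are part of the infiltrate that precedes diabetes.

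The libraries held 88268070 UMIs over 8200 barcodes with gluten and 116900677 UMIs over 7758 barcodes with HC alone, and 3735 and 4441 barcodes passed the filters on UMIs, genes, mitochondrial and hormone RNA. In the dendritic cells the median was 6825.5 UMIs with gluten and 8985 with HC alone, and 475422 and 567084 UMIs were summed. The libraries shared 15 barcodes, none of them among the 124 cells. No doublet was removed beyond the gate. The doublet caller Scrublet called 83 and 151 barcodes, and among the 6% of barcodes with the highest score were 4 dendritic cells with gluten and 0 with HC alone. Insulin RNA was found in every member. Ins2 stood at 4484 counts per 1000000 UMIs (CPM) with gluten and 2756 with HC alone, and both Ins1 and Ins2 had a UMI in all 64 and all 60 cells.

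Many members stood close to the edge of the lectin and Flt3 criterion. The median of the 4 genes together was 4 UMIs with gluten and 3 with HC alone. Exactly 2 UMIs, the lowest value inside, were found in 17 cells with gluten and 21 with HC alone, and 39 and 23 barcodes that met every other criterion had 1 UMI and lay just outside. By contrast no cell was near the limit of 5 H2-Ab1 UMIs, where the medians were 77.5 and 92.0 UMIs. Just outside the Xcr1 and Clec9a limit, with 1 UMI, lay 7 and 5 barcodes, and just outside the Fscn1 limit, with 2 UMIs, 1 and 8. When every barcode was thinned to 1000 UMIs before the gate, 23 and 20 cells met it, so the gate depends on depth.

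The defining genes went with the label in part. H2-DMb2, the beta chain of the peptide-loading molecule H2-DM, was at 559.5 CPM with gluten and 506 CPM with HC alone, against 151 and 144 CPM in cells gated for Xcr1 and Clec9a (the type 1 dendritic cell gate) and 85.8 and 80.0 CPM in cells gated for C1q (the macrophage gate). B cells held as much, with 506 and 574 CPM of H2-DMb2, and mature dendritic cells 266 and 369 CPM. Sirpa, the receptor for the signal CD47, stood at 164 and 263 CPM in the dendritic cells, against 5.50 and 12.1 CPM in the type 1 gate and 419.8 and 557 CPM in the macrophage gate. Itgax, the integrin CD11c, stood at 130.4 and 125 CPM, against 113 and 167 CPM in the macrophage gate. Zbtb46, a transcription factor of classical dendritic cells, reached 29.4 and 61.7 CPM, against 13.8 and 41.6 CPM in the type 1 gate. Irf4, on which many type 2 cells depend, did not mark them, with 10.5 and 24.7 CPM against 21.6 and 23.7 CPM in the T cell gate and 57.0 and 45.7 CPM in the B cell gate. Cd3e, Cd79a and Siglech had no UMI, which the rule forced for the last 2, and of 11 T cell genes none reached 10 UMIs, with a summed level of 21.03 and 22.9 CPM. The 5 neutrophil genes came to 12.6 and 3.53 CPM, and the 8 B cell genes to 58.9 and 33.5 CPM, most of it Ebf1 at 48.4 and 22.9 CPM. Of 7 plasmacytoid dendritic cell genes 4 had at least 10 UMIs, with a sum of 608 and 517 CPM, of which Bst2, which interferon induces in many cells, made up 461 and 379 CPM. Of 20 macrophage genes 13 had at least 10 UMIs, and their sum was 3309 and 4167 CPM. Apoe made up 1260 and 2038 CPM of that sum, in 12 and 10 cells, and without the cells that carried mesenchymal RNA, described below, 42.7 and 409 CPM, while Mertk, a receptor for dying cells, Trem2 and Gpnmb had no UMI.

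**Figure D1:**
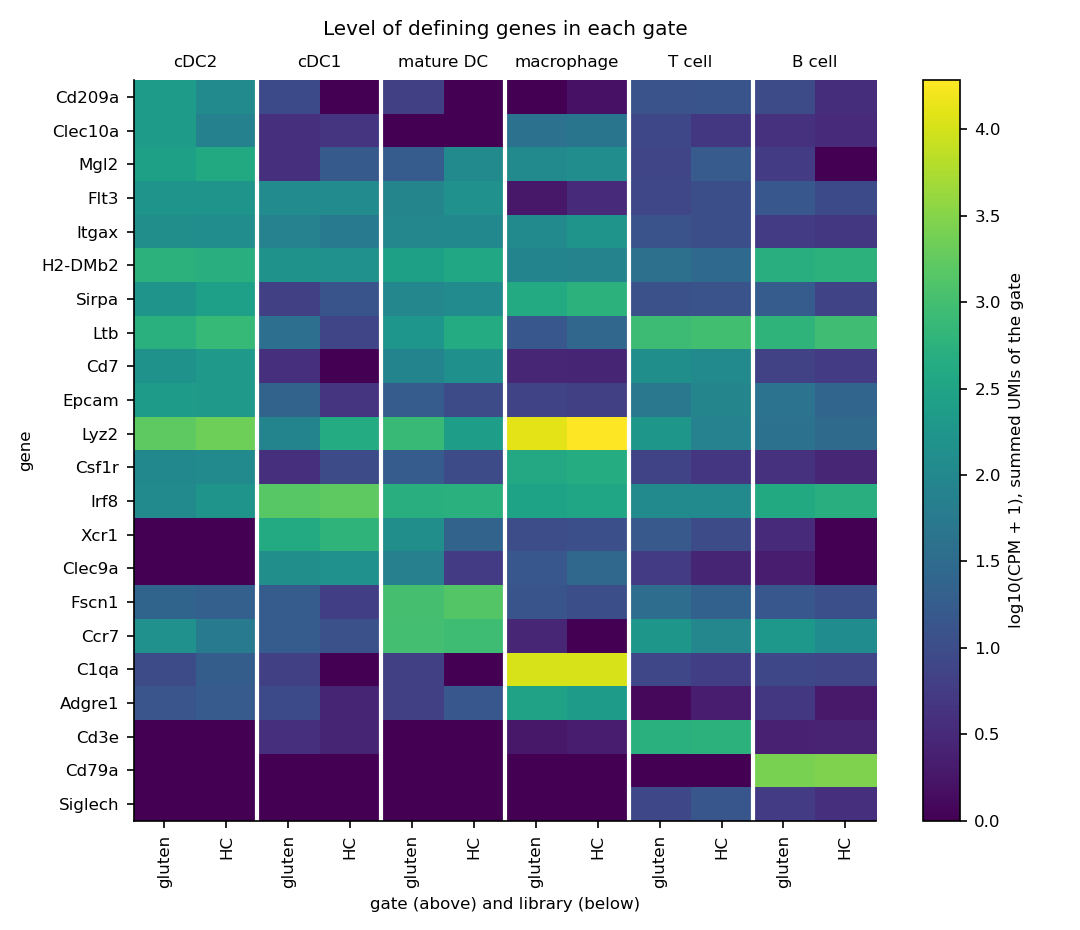
Level of 22 defining genes (rows) in 6 gates (column pairs) as log10(CPM + 1) of summed UMIs, with the library with gluten left of HC alone in each pair. The dendritic cells of the first pair have H2-DMb2 at 559.5 and 506 CPM and Irf8 at 107 and 164 CPM, and Cd209a, Xcr1, Clec9a, Cd79a, Siglech, C1qa and Fscn1 there follow from the gate.

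Beside the type 1 gate (32 and 40 cells), 69 of 2130 genes with at least 50 UMIs in each library were at least 4-fold higher in the type 2 cells in both libraries (3.24%) and 13 at least 4-fold lower (0.610%). Lineage genes stood among both. Irf8, the transcription factor of type 1 cells, was at 107 and 164 CPM against 1480 and 1691 CPM in the type 1 gate, log2 ratios of -3.79 and -3.37. Naaa and Cd24a, which mouse type 1 cells express, and Ppt1 and Mpeg1 were lower too, with log2 ratios between -3.99 and -3.06 over both libraries. Cd207 had 4 and 0 UMIs against 56 and 62 in the type 1 gate, Cadm1 4 and 14 UMIs against 53 and 113, and Rab7b 0 and 3 UMIs against 78 and 113. Higher were the interferon-induced membrane gene Ifitm1, at 442 and 714 CPM against 2.75 and 0 CPM, the interferon-inducible Ifi203, the chemokine receptor Ccr1, and Cd7, a surface protein of lymphocytes and some dendritic cells, at 149 and 198 CPM against 2.75 and 0 CPM. H2-M2, a nonclassical class I gene, stood at 448 and 693 CPM in 20 and 19 cells, against 4 and 3 UMIs in the type 1 gate. Mfge8, C3 and Clu also ranked high, but rested on few cells: Clu had UMIs in 6 and 2 cells, with 99 and 236 UMIs in 1 cell of each library.

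Beside the macrophage gate (157 and 145 cells), 63 of 3596 genes were at least 4-fold higher in both libraries (1.75%) and 111 at least 4-fold lower (3.09%). Ltb, the membrane lymphotoxin that organises lymphoid tissue, stood at 530.1 and 744 CPM against 13.8 and 24.5 CPM. Lsp1, a leukocyte actin-binding protein, was at 797 and 820.0 CPM against 24.0 and 17.9 CPM, in 59 and 56 cells. The epithelial adhesion gene Epcam, which some dendritic cells carry, was at 225 and 199 CPM against 6.46 and 5.38 CPM, and Ffar2, a receptor for short-chain fatty acids, at 139 and 286 CPM against 2.77 and 7.77 CPM. Nccrp1, Cd7, Ppp1r14a and Ifitm6 completed the 8 highest, and each had few UMIs in the macrophage gate. Nccrp1 had 76 and 137 UMIs against 2 and 1, and Ppp1r14a 67 and 102 against 4 and 4. Macrophage chemokines were far lower, with 4.21 and 3.53 CPM of Ccl8 against 4860 and 5492 CPM, from 2 UMIs in each library, and 3 and 1 UMIs of Cxcl13 against 2449 and 3953. Pf4, a platelet and macrophage chemokine, had 2 and 1 UMIs against 590 and 561, and Slc11a1, an ion transporter of phagosomes, 3 and 2 against 164 and 254. Ms4a7, Pla2g2d, Pla2g15 and Itgb5 were the others of the 8 lowest.

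Beside the mature dendritic cell gate, which requires Fscn1 and Ccr7 and held 21 and 22 cells, 22 of 1664 genes were at least 4-fold higher (1.32%) and 17 at least 4-fold lower in both libraries (1.02%). The inhibitory receptor Cd300a was at 189 and 206 CPM against 5.55 and 31.5 CPM, in 47 and 41 cells. Csf1r, the receptor for colony-stimulating factor 1, was at 98.9 and 106 CPM against 16.6 and 9.01 CPM, and Igsf6, Epcam and Nccrp1 were higher as well. Clu and Cpxm1 also ranked high, in 6 cells or fewer per library. Ccr7, the receptor that leads dendritic cells to lymph nodes, stood at 145 and 54.7 CPM against 1004 and 888 CPM, as the other gate requires. Fabp5, a fatty acid carrier, was at 259 and 298 CPM against 1765 and 2068 CPM, and Serpinb6b, Serpinb1a, Serpinb9, Cacnb3, Tmem123 and Txndc17 were lower with log2 ratios between -5.04 and -2.69.

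The members fell into cells with a lectin UMI and cells that entered through Flt3 alone. A UMI of Cd209a, Clec10a or Mgl2 was found in 46 of 64 cells with gluten (71.9%, exact Clopper-Pearson 95% interval 59.2 to 82.4%) and in 38 of 60 with HC alone (63.3%, 49.9 to 75.4%), and the other 18 and 22 had Flt3 only. All 3 lectins were seen together in 6 and 3 cells. Median depths were 6822 and 6902.5 UMIs in lectin-bearing and Flt3-only cells with gluten and 9199.5 and 8322.5 UMIs with HC alone. The following genes were chosen after their values were seen, in the same direction in both libraries, and carry no test. Lyz2, lysozyme of myeloid cells, stood at 2265 CPM in lectin-bearing and 46.4 CPM in Flt3-only cells with gluten, and at 3411 and 9.80 CPM with HC alone. At least 10 Lyz2 UMIs were held by 15 of 46 lectin-bearing and 0 of 18 Flt3-only cells with gluten, and by 12 of 38 and 0 of 22 with HC alone. Monocyte and macrophage genes were divided. Of 13 monocyte genes with at least 10 UMIs 7 were higher in lectin-bearing cells in both libraries and 3 lower in both, among them S100a4, at 1349 against 2019 CPM with gluten and 2218 against 2562 CPM with HC alone. Of 13 macrophage genes 13 were higher with gluten and 8 with HC alone, where Apoe was at 38.6 against 5595 CPM. The share of all genes higher in lectin-bearing cells is not given here, so these list counts stand without a background. Cells with at least 5 mesenchymal UMIs, described below, were 5 of 46 lectin-bearing and 2 of 18 Flt3-only cells with gluten. With HC alone they were 0 of 38 and 2 of 22. Without these cells Apoe kept 17 of 599 UMIs with gluten and 217 of 1156 with HC alone, and their part in the split was not tested. The Fc receptor Fcgr1 was at 80.9 against 7.74 CPM with gluten and 121 against 0 CPM with HC alone, the lipopolysaccharide receptor Cd14 at 147 against 15.5 CPM and 52.3 against 9.80 CPM, and the monocyte chemokine receptor Ccr2 at 104 against 30.9 CPM and 251 against 34.3 CPM. Il1b was at 1364 against 518 CPM and 411 against 122 CPM.

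Flt3-only cells had the higher level of several cell cycle genes. Stmn1, a regulator of microtubules in dividing cells, was at 98.2 CPM in lectin-bearing and 255 CPM in Flt3-only cells with gluten, and at 90.9 and 269 CPM with HC alone. Hmgb2 was at 269 and 735 CPM with gluten and at 259 and 696 CPM with HC alone, and Mki67 at 17.3 and 77.4 CPM and at 35.8 and 122 CPM. Few cells carried these levels: at least 30 UMIs of the cell cycle list were found in 3 of 46 lectin-bearing and 3 of 18 Flt3-only cells with gluten, and in 4 of 38 and 3 of 22 with HC alone. H2-Ab1 and Ltb differed less between both kinds of cell, as the plot of lectin-bearing and Flt3-only cells shows.

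**Figure D2:**
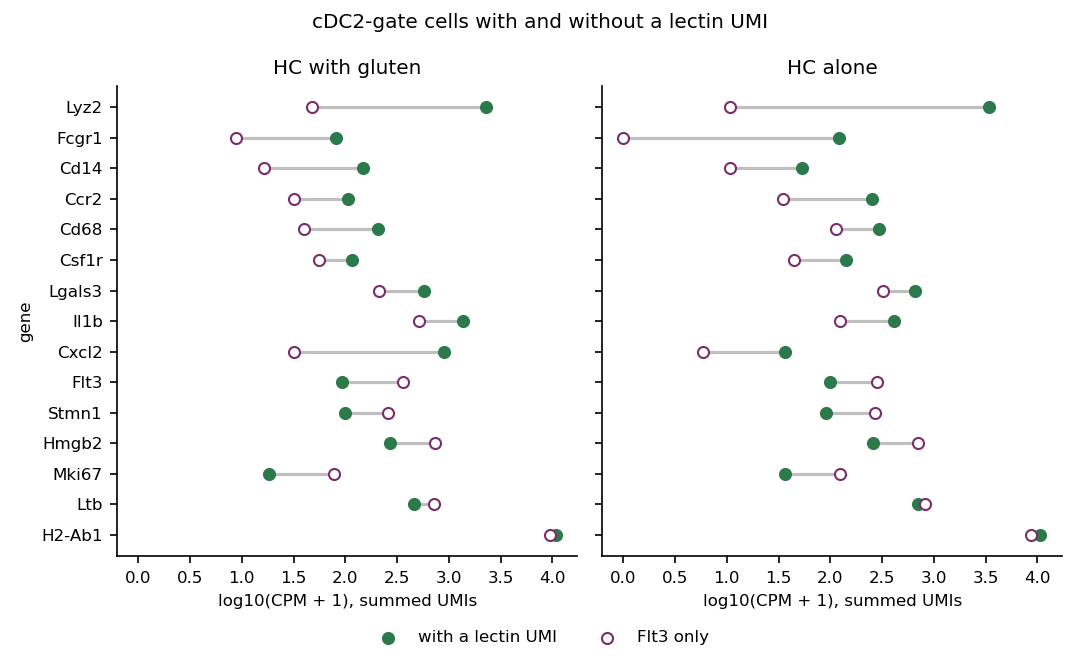
Level of 15 genes in lectin-bearing (filled) and Flt3-only (open) members as log10(CPM + 1) of summed UMIs, with the library with gluten in the left panel and HC alone in the right. Lyz2 stands at 2265 against 46.4 CPM on the left and 3411 against 9.80 CPM on the right, and Flt3 differs by the choice of the cells.

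Some members carried RNA of other cells, more of it with gluten. The 4 mesenchymal genes Col1a1, Col1a2, Col3a1 and Dcn summed to 1239 CPM with gluten and 354 CPM with HC alone, and 7 of 64 and 2 of 60 cells held at least 5 of their UMIs. Of 4 endothelial genes Cdh5 had no UMI, Pecam1 had 10 and 3, Plvap 13 and 5 and Kdr 6 and 11. The ductal genes Krt19, Krt8, Sox9 and Cftr and the mast cell genes Cpa3, Mcpt4 and Fcer1a had no UMI. No UMI of Ptprc (CD45, carried by all leukocytes) was found in 5 and 2 cells. Of 43 acinar enzyme genes 10 had at least 10 UMIs, all 10 at least 2-fold higher with gluten, with a summed level of 393 and 65.2 CPM, and 6 and 1 cells held at least 10 acinar UMIs. The 23 islet hormone and granule genes summed to 14204 and 5765 CPM. Somatostatin (Sst) made up 4341 CPM with gluten and 95.2 CPM with HC alone, and 1163 of its 2064 UMIs with gluten lay in 1 cell. These lists hold RNA that other pancreas cells make, and their part in the differences between diets below was not tested. Values without the mesenchymal carriers, and without the cell holding most UMIs of a gene in each library, stand beside results that they move, and were chosen after the data were seen.

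Type 2 dendritic cells were a small share of the barcodes in both libraries. They made up 64 of 3735 kept barcodes with gluten (1.71%, exact Clopper-Pearson 95% interval 1.32 to 2.18%) and 60 of 4441 with HC alone (1.35%, 1.03 to 1.74%), a difference of 0.362 percentage points (Newcombe 95% interval -0.170 to 0.919). Among barcodes with a Ptprc UMI they were 59 of 2258 (2.61%) and 58 of 3465 (1.67%), a difference of 0.939 points (0.182 to 1.77). Both readings depended on depth. With at least 2000 UMIs per barcode the difference over kept barcodes was 0.662 points (0.0150 to 1.36), and with every barcode thinned to 1000 UMIs before the gate the difference over barcodes with Ptprc was 0.441 points (-0.0197 to 0.986). The T cell gate held 1217 and 2216 of the kept barcodes, so the larger share with gluten stood beside fewer T cells. Within the myeloid gates together, 64 of 274 (23.4%) and 60 of 267 (22.5%) were type 2 dendritic cells, and the interval of the difference of 0.886 points ran from -6.20 to 7.94.

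Between the diets, UMIs were summed over the cells of each library and divided by the library's total over these cells. Of 2882 genes with at least 50 UMIs over both libraries, 110 were higher with gluten by at least 2-fold (3.82%) and 76 lower by as much (2.64%). The median log2 ratio of all 2882 was -0.10, and trimmed-mean (TMM) scaling, which moves every gene up by that amount, gave 121 higher and 48 lower. Of the genes at least 2-fold higher, 9 had at least as many UMIs in 1 cell as in all others of the library with gluten, and 7 belonged to the lists of RNA from other cells. Without the mesenchymal carriers 82 of the 110 were still at least 2-fold higher and 49 of the 76 at least 2-fold lower, and without the top cell of each library 102 and 68. Intervals after a log2 ratio are exact conditional binomial 95% intervals.

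Among the 12 genes whose interval lay farthest above 0 with gluten, 3 were chemokines, and Il1b and its decoy receptor were also among them. Cxcl2, which attracts neutrophils through Cxcr2, stood at 658 CPM with gluten and 24.7 CPM with HC alone, a log2 ratio of 4.74 (3.97 to 5.62). It had UMIs in 25 and 9 cells, and 172 of the 313 UMIs with gluten lay in 1 cell, without which and the top cell with HC alone the ratio was 4.07. Its neighbour Cxcl1 was at 130.4 CPM, in 10 cells, and 3.53 CPM, from 2 UMIs in 1 cell, a log2 ratio of 5.21 (3.29 to 8.29). Without the mesenchymal carriers Cxcl1 had 23 and 0 UMIs. In the mm10 build Cxcl1 lies at chr5:90891241-90893115 and Cxcl2 at chr5:90903871-90905938, both on the + strand. Il1b, the cytokine interleukin 1 beta, stood at 1134 and 307 CPM in 43 and 33 cells, a log2 ratio of 1.89 (1.64 to 2.14), and Il1r2, its decoy receptor, at 271 and 40.6 CPM in 45 and 14 cells, a ratio of 2.74 (2.09 to 3.45). The chemokine Ccl4 was at 158 and 24.7 CPM, in 13 and 4 cells, a ratio of 2.68, or 3.99 without the top cells.

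Other genes far up were spread over many cells. Plaur, the urokinase receptor, was at 145 CPM in 31 cells with gluten and 14.1 CPM in 5 cells with HC alone, a log2 ratio of 3.36 (2.30 to 4.63). Hilpda, a lipid droplet protein induced by hypoxia, was at 126 and 12.3 CPM in 32 and 5 cells, a ratio of 3.35. Nr4a2, an orphan nuclear receptor of the early response, was at 183 and 26.5 CPM in 36 and 13 cells, a ratio of 2.79, and Vps37b, a subunit of the sorting complex ESCRT-I, at 156 and 21.2 CPM in 38 and 9 cells, a ratio of 2.88. The remaining 3 of the 12 rested on few cells. Mgp, a matrix protein, had 250 UMIs with gluten, 198 of them in 1 cell, and 2 with HC alone, a ratio of 7.22 (5.35 to 10.27), and 1 and 0 UMIs without the mesenchymal carriers. Rgs5, a pericyte gene, had 55 of its 59 UMIs with gluten in 1 cell and a ratio of 3.33, with 4 and 0 UMIs without the top cells. Rbp4, the retinol carrier, had UMIs in 6 and 4 cells, with 77 of 137 UMIs with gluten in 1 cell, and a ratio of 5.03.

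Of the 12 genes whose interval lay farthest below 0, most were spread over many cells. Slfn2, a Schlafen gene of leukocyte quiescence, stood at 128 CPM in 35 cells with gluten and 383 CPM in 54 cells with HC alone, a log2 ratio of -1.58 (-2.01 to -1.16). Slamf7, a receptor of the SLAM family, was at 52.6 and 157 CPM, a ratio of -1.58, and Cd244a, another SLAM receptor, at 31.6 and 102 CPM, a ratio of -1.70. Tnfaip8l2, which restrains immune signalling, was at 48.4 and 153 CPM, a ratio of -1.67 (-2.40 to -0.99), Relt, a receptor of the TNF family, at 27.3 and 89.9 CPM, and the splicing factor Srsf1 had 10 and 45 UMIs, a ratio of -1.92. Tmem131l and BC035044 had ratios of -1.64 and -1.49. Glipr2 was at -1.72, with 37 of its 63 UMIs with HC alone in 1 cell, and at -0.75 without the top cells. Single cells carried the other 3 of the 12. Ccl21a, a chemokine of lymph node stroma, had 0 UMIs with gluten and 207 in 1 cell with HC alone, at least 57.8-fold lower against a floor of 3 counts over the group. Without the mesenchymal carriers Ccl21a had no UMI in either library. Il12b, a subunit of interleukins 12 and 23, had 1 UMI with gluten and 50 UMIs, all in 1 cell, with HC alone, a ratio of -5.39 (-10.72 to -2.85). Bcl2l14 had 1 and 137 UMIs, 123 of them in 1 cell, a ratio of -6.84 (-12.16 to -4.34), and had 0 and 14 UMIs without the top cells. In the mature dendritic cell gate Bcl2l14 stood at 616 and 798 CPM and Glipr2 at 810 and 644 CPM, while Ccl21a had no UMI. The part of such cells in these ratios was not tested.

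**Figure D3:**
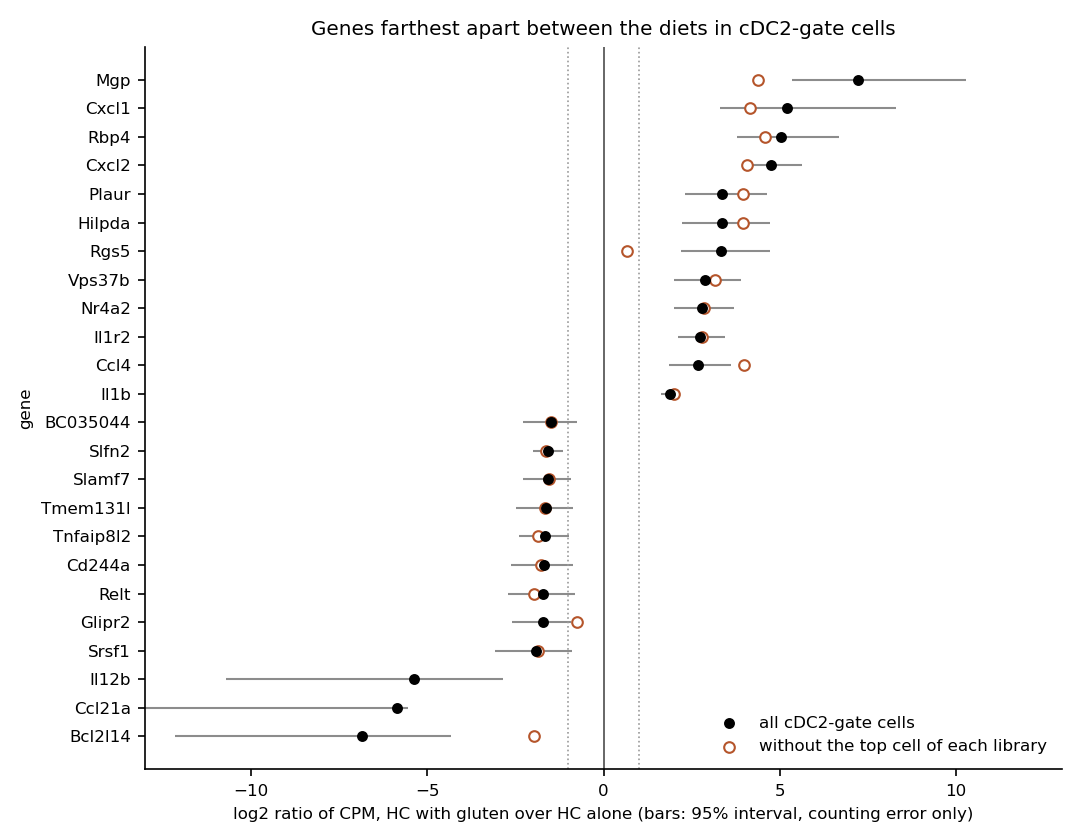
Log2 ratio of CPM, HC with gluten over HC alone, for the 12 genes with the nearer end of the 95% interval farthest above 0 and the 12 with it farthest below 0 (black points, intervals for counting error only, an interval cut at the left edge has no lower end) and the same without the top cell of each library (open points, where it could be had). A library left with 0 UMIs was set to 3 counts, so the open points of Mgp, Cxcl1, Rgs5 and Bcl2l14 and the black point of Ccl21a are bounds. Il1b, Il1r2, Nr4a2, Plaur and Hilpda stay above a log2 ratio of 1 without the top cells, while most genes at the bottom lie between -2 and -1.

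Among the 19 cytokine genes listed, 8 had at least 10 UMIs, 3 of them higher with gluten by at least 2-fold and 1 lower by as much. Over all 7761 genes with that many UMIs, 7.54% were higher by at least 2-fold and 10.3% lower by as much, 58.8% lay on the lower side, and the median log2 ratio was -0.12, and this is the background for all lists below. Beside Il1b these were Tnf, with 31 and 9 UMIs in 16 and 5 cells and a log2 ratio of 2.04 (0.93 to 3.29), and Il1rn, the antagonist of the interleukin 1 receptor, with 21 and 10 UMIs and a ratio of 1.32. Tgfb1 stood at 196 and 212 CPM, a ratio of -0.11, and Ltb at 530.1 and 744 CPM, a ratio of -0.49. Il10 and Lta had no UMI, and Il6 had 4 and 0 UMIs and Il23a 1 and 1. The 14 measured chemokines lay on both sides, with a median of 0.57, or -0.04 with every cell thinned to 1000 UMIs. Beside Cxcl1, Cxcl2 and Ccl4, Ccl17 was the fourth at least 2-fold higher, from 32 UMIs in 1 cell with gluten and 0 with HC alone, and Ccl12 and Ccl22 were lower, each on UMIs of 1 cell with HC alone. Ccl5, a chemokine for T cells, was at 73.6 and 160.5 CPM, a ratio of -1.12 (-1.73 to -0.55). The interferon-induced Cxcl9 was the highest chemokine, at 1140 and 1317 CPM in 31 and 30 cells, a ratio of -0.21, and Cxcl10 stood at 705 and 437 CPM.

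Receptors that sense microbes and damage were few above the minimum, and 4 of the 11 measured were at least 2-fold higher with gluten. Nlrp3, the inflammasome sensor that leads to cleavage of interleukin 1 beta, stood at 149 CPM in 34 cells with gluten and 33.5 CPM in 13 cells with HC alone, a log2 ratio of 2.16 (1.41 to 2.97). Cd14 was at 111 and 37.0 CPM, a ratio of 1.59, and Tlr2, which senses bacterial lipoproteins, at 94.7 and 37.0 CPM, a ratio of 1.35. Clec4e was the other, with 8 and 3 UMIs. Lower by at least 2-fold was Clec4a1, an inhibitory lectin, with 7 and 22 UMIs. The median of the list was 0.06. Tlr7 had 0 and 1 UMIs, and Tlr9 had none.

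NF-kappa-B genes, which code for the transcription factor downstream of these receptors and for its regulators, were split. Of 16 genes, 10 were higher and 6 lower with gluten, with a median log2 ratio of 0.47. At least 2-fold higher was the subunit Rel, at 389 and 106 CPM in 52 and 37 cells (1.88, 1.45 to 2.32). So were Nfkbiz, at 187 and 54.7 CPM (1.78), and the inhibitors Nfkbib (1.65), Tnip3 (1.38) and Tnfaip3 (1.22). Birc3, an inhibitor of cell death, was at least 2-fold lower, at 44.2 and 93.5 CPM (-1.08), and the subunit Nfkb2 was at 75.7 and 125 CPM (-0.73). In Flt3-only cells the median was -0.22, against 0.52 in lectin-bearing cells, and the difference was not tested.

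Immediate early genes, which cells transcribe within minutes of a stimulus or of handling, were mostly higher with gluten. Of 23 measured genes 18 were higher, 11 of them at least 2-fold, and 5 were lower, with a median log2 ratio of 0.87. Nr4a1 stood at 141 and 42.3 CPM in 27 and 12 cells, a ratio of 1.74 (1.04 to 2.47). Atf3, a stress-induced repressor, was at 568 and 203 CPM (1.49), Fosb at 766 and 346 CPM (1.15) and Egr1 at 362 and 169 CPM (1.10). Zfp36, which destabilises cytokine mRNA, was at 459 and 751 CPM, a ratio of -0.71 (-0.95 to -0.47), and Dusp1, a phosphatase of MAP kinases, at -0.23. Without the mesenchymal carriers 8 genes were at least 2-fold higher, and the median was 0.77. Egr1 was then at 0.59 and Jun at 0.13, against 0.50 with them. Digestion with collagenase and trypsin was part of both preparations, and its part in these levels was not tested.

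Heat shock chaperones, which hold or refold proteins and are induced by the factor Hsf1 through heat shock elements, were higher with gluten in 13 of 13 genes, 7 of them at least 2-fold, with a median log2 ratio of 1.11. Without the mesenchymal carriers 11 genes were measured, 5 of them at least 2-fold higher, with a median of 0.81. Bag3, with 9 and 4 UMIs, had 3 and 4 without these carriers and fell below the minimum of 10. Without cells that held at least 10 acinar UMIs the median was 0.78, and with every cell thinned to 1000 UMIs the median was 0.47. Dnajb1, a cochaperone of Hsp70, stood at 162 CPM in 33 cells with gluten and 56.4 CPM in 23 cells with HC alone, a ratio of 1.52 (0.91 to 2.16). Hspa1a, inducible Hsp70, was at 156 and 72.3 CPM (1.11), and its near copy Hspa1b at 50.5 and 14.1 CPM (1.84). The constitutive Hspa8 was at 3033 and 2135 CPM (0.51, 0.40 to 0.62) and Hsp90ab1 at 2265 and 1596 CPM (0.51). Smallest were the mitochondrial Hspe1, at 568 and 520.2 CPM (0.13, -0.12 to 0.37), and Dnaja1 (0.25). Highest were Hsf1, the factor itself, with 18 and 4 UMIs (2.42, 0.82 to 4.45), and Hspb1 (1.90), which had 0 and 6 UMIs without the mesenchymal carriers. The inducible pair Hspa1a and Hspa1b and the lowest member, Hspe1, are shown in sequence to compare their heat shock elements. Upstream sequences of Hspa1a, Hspa1b and Hspe1, from RefSeq on GRCm38.p6, are the 250 bases before the annotated start, with each heat shock element core, GAANNTTC, in capitals. The core reads the same on both strands. They lie at chr17:34972157-34972406 on the - strand, chr17:34959239-34959488 on the - strand and chr1:55087898-55088147 on the + strand.
Hspa1a: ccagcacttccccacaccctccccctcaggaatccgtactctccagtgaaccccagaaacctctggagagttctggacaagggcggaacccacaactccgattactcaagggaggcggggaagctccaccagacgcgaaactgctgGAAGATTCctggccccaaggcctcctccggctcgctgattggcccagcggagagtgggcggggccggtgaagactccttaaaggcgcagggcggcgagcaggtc
Hspa1b: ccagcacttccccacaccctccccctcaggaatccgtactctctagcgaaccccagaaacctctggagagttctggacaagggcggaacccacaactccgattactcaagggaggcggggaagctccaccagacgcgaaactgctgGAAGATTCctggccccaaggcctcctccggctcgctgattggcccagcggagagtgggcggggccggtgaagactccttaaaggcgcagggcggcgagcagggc
Hspe1: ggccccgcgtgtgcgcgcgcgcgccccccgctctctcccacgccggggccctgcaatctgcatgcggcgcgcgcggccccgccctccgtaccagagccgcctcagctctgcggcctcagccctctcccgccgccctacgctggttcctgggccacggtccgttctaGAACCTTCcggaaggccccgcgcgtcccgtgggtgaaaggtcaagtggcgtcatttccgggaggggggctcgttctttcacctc
Hspa1a and Hspa1b differ at 3 of these 250 bases and their mRNAs are near copies, so the split of counts between them is uncertain. Each of the 3 sequences holds 1 core, Hspe1 with its small ratio included. In windows of 250 bases before to 50 after the start, 9 of the 13 genes had an entry, 8 of these had a core in at least 1 window, and 9 of their 14 windows held it, against 7.86% of all 32851 windows. Windows overlap, for Hspd1 and Hspe1 among others, and their 10 matches lie at 8 separate sites. Dnajb1 had none in its windows. A match is a description of these letters only.

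Presentation of antigen on MHC class II was near level between the diets, apart from its transactivator. Cd74, the invariant chain, stood at 28436 CPM with gluten and 25370 CPM with HC alone, a log2 ratio of 0.16 (0.13 to 0.20), second among all genes after Tmsb4x. H2-Ab1, H2-Aa and H2-Eb1, the chains of the class II molecules, were at 10515 and 9981 CPM, 10021 and 9621 CPM, and 8786 and 8644 CPM, with log2 ratios of at most 0.08. H2-DMb2 was at 0.14 (-0.10 to 0.39) and H2-Ob, of the H2-O molecule that restrains H2-DM, at -0.02. Ciita, the transactivator that drives class II genes, was at 229 CPM in 48 cells with gluten and 464 CPM in 56 cells with HC alone, a ratio of -1.02 (-1.35 to -0.69), or -0.87 without the mesenchymal carriers. H2-Eb2, at -0.77, and Rfx5, with 7 and 14 UMIs (-0.75, -2.30 to 0.66), were the next lowest, and the median of the 14 genes was 0.04. Lysosomal proteases had a median of -0.08, with Ctss, which cleaves the invariant chain, at 1209 and 1462 CPM (-0.27) and Ctsl at 172 and 100.5 CPM (0.78). In MHC class I presentation 14 of 19 genes were lower with gluten, none by 2-fold, with a median of -0.14. Under TMM scaling 10 of 19 were lower, with a median of -0.04. The lowest was H2-T22, at 27.3 and 54.7 CPM. B2m, the light chain, was at 3279 and 3804 CPM (-0.21).

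Transcription factors of dendritic cells were lower with gluten in 15 of 21 genes, 5 of them at least 2-fold, with a median log2 ratio of -0.40. Under TMM scaling 14 were lower, 4 of them at least 2-fold. Id2, which the development of some dendritic cells requires, stood at 324 CPM in 35 cells with gluten and 614 CPM in 50 cells with HC alone, a ratio of -0.92 (-1.21 to -0.64). Ikzf1, a factor of lymphoid and myeloid development, was at 61.0 and 141 CPM (-1.21, -1.88 to -0.58). Zbtb46 had 14 and 35 UMIs (-1.07, -2.08 to -0.14), and Batf, Bcl6 and Irf4, the others at least 2-fold lower, had 12 and 31, 5 and 16, and 5 and 14 UMIs. The interval of Irf4, -3.06 to 0.32, held 0. Nfil3 was at 124 CPM in 32 cells and 28.2 CPM in 14 cells, a ratio of 2.14 (1.32 to 3.03), and Klf4, which some type 2 cells depend on, at 255 and 141 CPM (0.85). Spi1, the myeloid factor PU.1, was at 519.5 and 633 CPM (-0.29).

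Ligands for T cells and receptors for migration were divided as well. Of 14 costimulation and checkpoint genes 9 were lower with gluten, and the median log2 ratio was -0.34. Icosl, the ligand of ICOS, was at 33.7 CPM in 13 cells with gluten and 86.4 CPM in 29 cells with HC alone, a ratio of -1.36 (-2.27 to -0.52). Cd40, which receives help from T cells, was at 61.0 and 138 CPM (-1.17), and Slamf7 was the other at least 2-fold lower. At least 2-fold higher were Cd80, the ligand of CD28, with 28 and 14 UMIs (1.25), Tnfsf9, with 27 and 12 (1.42), and Pvr, with 14 and 3 (2.48, 0.64 to 4.92). Cd86 was at 217 and 250.4 CPM (-0.21) and Cd83, a surface mark of activation, at 143 and 81.1 CPM (0.82). Ccr7 was at 145 CPM in 27 cells and 54.7 CPM in 6 cells (1.41, 0.78 to 2.07), inside the gate that keeps out cells with 2 Fscn1 UMIs. Lower were Ccr2, at 84.1 and 173 CPM (-1.04), and Ccr6, a receptor for Ccl20, at 61.0 and 129 CPM in 17 and 34 cells (-1.08). Over 12 receptors the median was -0.04, or 0.06 under TMM scaling.

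Surface genes of the lineage were divided. Over 19 of them the median log2 ratio was -0.20, or -0.10 under TMM scaling. At least 2-fold higher were Esam, with 11 and 3 UMIs (2.13, 0.21 to 4.61), Cd24a, with 18 and 10 (1.10, -0.09 to 2.38), and Itgam, with 16 and 9 (1.08, -0.18 to 2.44), and lower by as much was Clec4a4, with 5 and 15 UMIs. Dpp4 was at 101 and 185 CPM in 34 and 46 cells (-0.87), Csf2rb, a chain of the GM-CSF receptor, at 109 and 192 CPM (-0.81), and Sirpa at -0.68 (-1.09 to -0.27). Among the genes of the rule, Clec10a was at 225 and 74.1 CPM (1.60), Cd209a at 229 and 111 CPM (1.05), Mgl2 at 269 and 395 CPM (-0.55) and Flt3 at 164 CPM in both. The receptor Il6ra was at 40.0 and 93.5 CPM (-1.23). Of 9 measured regulatory genes 5 were higher, with a median of 0.49, and Il10ra was the lowest, at 37.9 and 108 CPM in 11 and 31 cells (-1.51). Monocyte genes had a median of -0.34, with Cd14 and Nr4a1 at least 2-fold higher, Ccr2 lower by as much, Lyz2 at 1662 and 2187 CPM and S100a4 at 1531 and 2342 CPM (-0.61). Tgm2, the transglutaminase that modifies gluten peptides in coeliac disease, was at 96.8 CPM in 27 cells with gluten and 82.9 CPM in 28 cells with HC alone, a ratio of 0.22 (-0.40 to 0.84).

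Interferon and metabolic lists had medians near that of all genes. The median log2 ratio of 25 interferon response genes was -0.05, 12 higher and 13 lower, 0.05 under TMM scaling with 13 higher and 12 lower, and -0.35 without the mesenchymal carriers. At least 2-fold higher were Oasl2, with 24 and 13 UMIs (1.14, 0.11 to 2.24), Ifit3, with 9 and 4, and Oas1a, with 8 and 4. Lower by as much was Stat2, a signal transducer of type I interferon, with 8 and 37 UMIs in 7 and 26 cells (-1.96, -3.27 to -0.83). Irgm1 was at 75.7 and 150 CPM (-0.99), and Irf1 at 219 and 153 CPM (0.51). Nuclear genes of oxidative phosphorylation were lower in 16 of 19, none by 2-fold, with a median of -0.22, and in 13 of 19 under TMM scaling, while glycolysis and hypoxia genes had a median of 0.05. Vegfa, at 2.99 (1.24 to 5.39) from 20 and 3 UMIs in 17 and 2 cells, was their 1 gene at least 2-fold higher. The cell cycle list had a median of 0.09, with at least 30 UMIs in 6 and 7 cells. Fth1, the ferritin heavy chain, was at 8855 and 6391 CPM (0.47, 0.41 to 0.54) in all 64 and 60 cells.

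**Figure D4:**
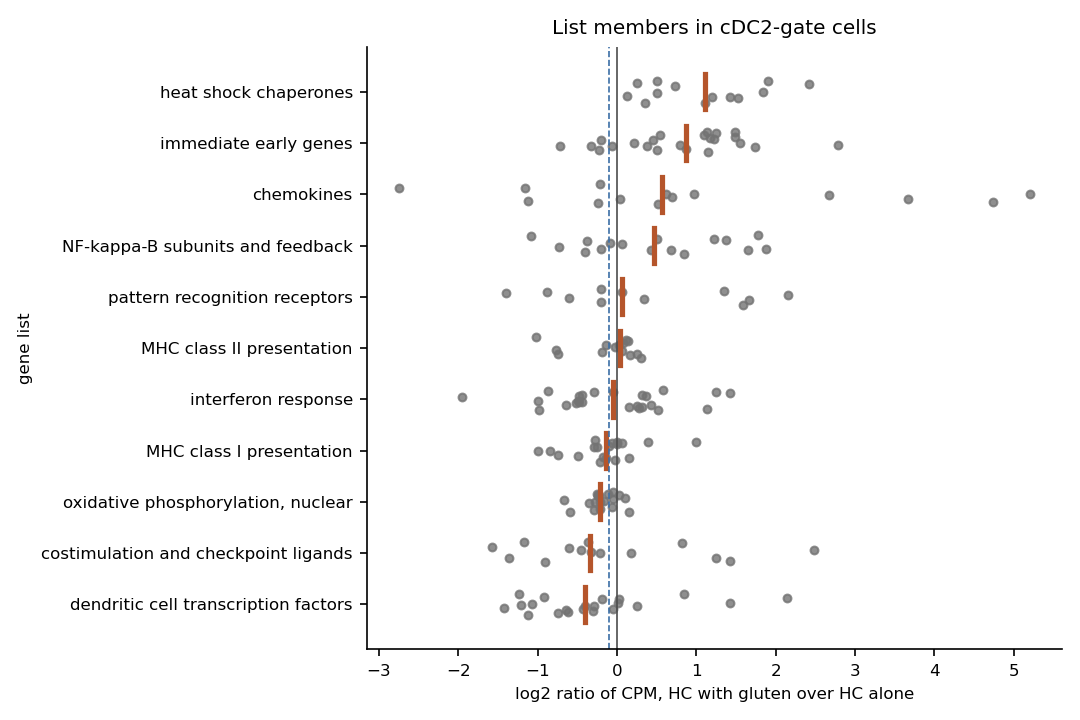
Log2 ratio of CPM, HC with gluten over HC alone, of every member with at least 10 UMIs (points) in 11 lists, with the list's median (thick line) and the median of 2882 genes at -0.10 (dashed line). A gene with 0 UMIs in 1 library is drawn against a floor of 3 counts, as a bound. The 13 heat shock chaperones all lie above 0 around a median of 1.11, and 15 of 21 transcription factors lie below 0 (14 under TMM scaling).

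Shares of cells with a UMI were compared after thinning every cell to 1000 UMIs, since depth differed between the libraries, and T gate cells, with medians of 2388 and 2862.5 UMIs, gave the level that free RNA reaches. Il1b was found in 28 of 64 cells with gluten (43.8%, exact 95% interval 31.4 to 56.7%) and 13 of 60 with HC alone (21.7%, 12.1 to 34.2%), against 1.40% and 0.361% of T gate cells, and without thinning in 67.2% and 55.0%. Cxcl2 was found in 12 of 64 (18.8%, 10.1 to 30.5%) and in 0 of 60, which allows a share of up to 5.00% by a floor of 3 counts or 5.96% by the exact interval, against 1.07% and 0.226% of T gate cells, and without thinning in 39.1% and 15.0%. Il1r2 was found in 16 of 64 and 5 of 60 cells (8.33%), against 0.657% and 0.722% of T gate cells, and without thinning in 70.3% and 23.3%. In the other direction Id2 was found in 18.8% and 41.7% (29.1 to 55.1%), though T cells also express it, with 25.8% and 23.2% of T gate cells. Icosl was found in 0 of 64, which allows up to 4.69% by the floor or 5.601% by the exact interval, and 7 of 60 (11.7%), against 0.164% and 0.226% of T gate cells, and without thinning in 20.3% and 48.3%. Ciita was found in 17 of 64 and 15 of 60 cells after thinning and in 75.0% and 93.3% without, so its difference was not detectable at 1000 UMIs per cell.

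The same lists were read in the other gates of the same libraries. Immediate early genes had a median log2 ratio of 1.01 in the type 1 gate, 0.27 in the mature gate, 0.98 in the macrophage gate, 0.45 in T cells and 0.42 in B cells, beside 0.87 in type 2 dendritic cells. Heat shock chaperones had medians of 0.77, 0.56, 0.75, 0.44 and 0.31 in the same order, beside 1.11. Both medians lay above 0 and above the median of all measured genes in all 6 gates, which ran from -0.15 to 0.03. The interval of the immediate early median held 0 in the mature gate (-0.26 to 0.68) and in B cells (-0.03 to 0.97). The transcription factor list stood at -0.15, -0.12, -0.08, 0.10 and -0.19, beside -0.40, with intervals that overlapped that of -0.92 to 0.01 in type 2 cells. Il1b was higher with gluten in the type 1 gate, at 259 and 34.6 CPM, and at 765 and 549 CPM in the macrophage gate, but level in the mature gate, at 377 and 369 CPM. Cxcl2 stood at 3721 and 389 CPM in the macrophage gate. Differences between gates were not tested.

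**Figure D5:**
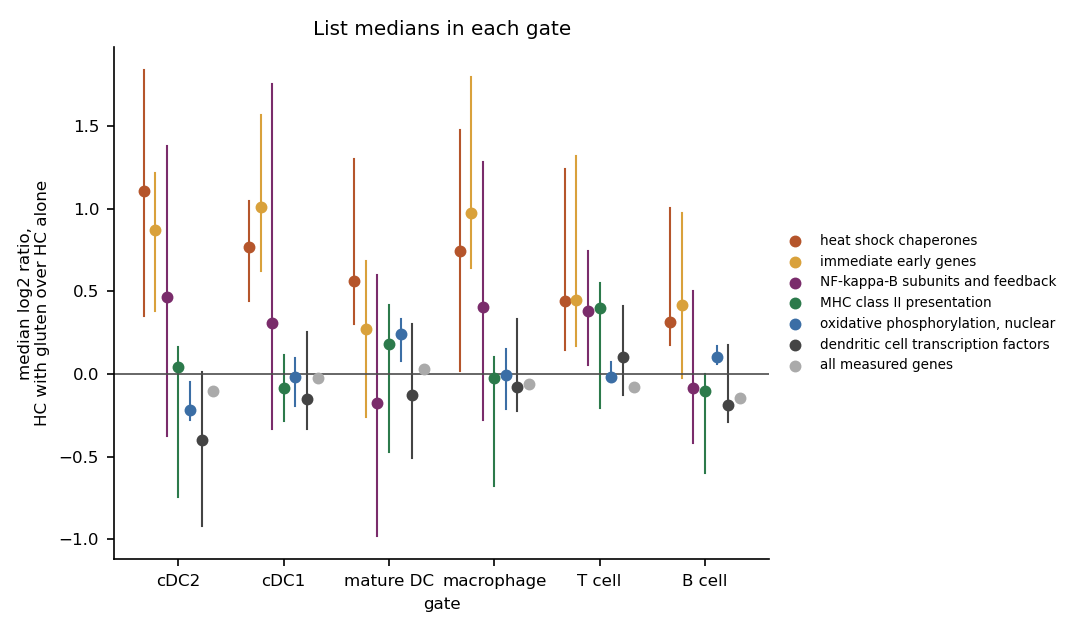
Median log2 ratio, HC with gluten over HC alone, of 6 lists and of all measured genes in each gate, with order-statistic 95% intervals over the genes of a list. Heat shock and immediate early medians lie above 0 in all 6 gates, at 1.11 and 0.87 in type 2 dendritic cells.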

How the data were processed

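Cells dispersed from pancreatic islets of NOD mice were counted with the 10x Genomics single cell 3' v3 kit, 1 library per diet. The authors deposited 1 filtered matrix of raw UMI counts per library, made with Cell Ranger 4.0.0 on mm10 per the submitters' processing notes. How cells were called, and with which annotation release, is not given in the sources used here. The matrices hold no cell types. Of 31053 gene IDs, 30934 matched the GENCODE M21 annotation of the same genome, from which positions were taken. Gene symbols were mapped from the gene IDs of the deposited files.

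The deposited counts were gated per barcode as the opening states, summed over the cells of each library and divided by the sum to give counts per 1000000 UMIs. With 1 library per diet no model was fitted and no p-value computed. Log2 ratios are HC with gluten over HC alone, with exact conditional binomial 95% intervals, and shares have Clopper-Pearson or Newcombe intervals, all for counting error only. A gene counts as measured from 50 UMIs over both libraries and as a list member from 10. The floor for a group at 0 is 3 counts. Genes were named by the nearer bound of the interval, 12 in each direction, leaving out genes of the gate, of the lists of RNA from other cells, mitochondrial genes and predicted genes. Examples from a list are its 2 highest and 2 lowest members with 50 or more UMIs and members with a textbook role, and other genes were chosen after their values were seen. Beside each other gate, the 8 highest and 8 lowest ratios were named, at least 4-fold in both libraries, apart from 1 that is not reported here. The members, lists and tests were chosen with earlier results of these data known. TMM factors came from edgeR 4.0.16 in R 4.3.3, and the rest used Python 3.11.15 with numpy 2.4.6, scipy 1.17.1, pandas 2.3.3, scanpy 1.11.5 (Scrublet) and matplotlib 3.10.9. The computation was tested on simulated counts.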

Additional observations from a re-analysis of the deposited data

Results flagged for a closer look

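The nuclear genes of oxidative phosphorylation, which code for subunits of the mitochondrial respiratory chain, stood on opposite sides in different gates of the same 2 libraries. Their median log2 ratio, HC with gluten over HC alone, was -0.22 in type 2 dendritic cells, where 16 of 19 genes were lower with gluten. In the mature dendritic cell gate it was 0.24, with 16 of 18 genes higher, and in the B cell gate 0.10, with 15 of 19 higher. Over all measured genes the medians were -0.10, 0.03 and -0.15 in the same order. Of all measured genes 1135 of 2882, 536 of 1042 and 2748 of 8139 were higher. Under TMM scaling the median of the list in type 2 dendritic cells was -0.12, with 13 of 19 genes lower. Without TMM scaling the list median was -0.02 in the type 1 gate, -0.007 in the macrophage gate and -0.02 in the T cell gate. Among type 2 dendritic cells it was -0.28 in lectin-bearing cells and -0.02 in Flt3-only cells, where 8 of 18 genes were higher. What drew attention was the change of side between gates. The difference between gates was not tested, because each diet had 1 library, and genes of a list are not replicates of a diet.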

How the results depend on the processing

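The counts of genes at least 2-fold apart depended on the settings more than the list medians did. In part this was fixed in advance, since minima of 20 and 200 UMIs bear on the gene counts only. List medians keep their own minimum of 10 UMIs. Against 110 higher and 76 lower with gluten, TMM and median-of-ratios scaling each gave 48 lower. A minimum of 20 UMIs gave 293 higher and 378 lower of 5573 genes, a minimum of 200 gave 23 and 5 of 693, and thinning every cell to 1000 UMIs gave 11 and 7 of 326, where fewer genes were measured. Leaving out the cells with mesenchymal markers gave 73 higher and 61 lower of 2567. Without the 4 cells of high Scrublet score, all of them with gluten, 81 were higher and 72 lower of 2782. Without the cells lacking Ptprc, 91 were higher and 74 lower of 2754. The acinar median was 1.43 without the acinar carriers, and the oxidative phosphorylation median -0.28 in lectin-bearing cells alone. List medians ran from 0.61 to 1.09 for immediate early genes, 0.47 to 1.30 for heat shock chaperones, 0.39 to 0.62 for NF-kappa-B genes and -0.51 to -0.30 for transcription factors over 10 planned and 4 added settings. The added settings, chosen after seeing the data, left out the mesenchymal carriers, cells without Ptprc, Flt3-only cells, or the top cell of each gene. Of single log2 ratios 1353 stayed within their counting interval and 53 did not. Those that stayed include 119 ratios at a minimum of 20 UMIs and 36 at 200, which a changed minimum cannot move. With cells thinned to 1000 UMIs 16 ratios could be had, 6 within and 10 outside that interval, and all 16 kept their direction. Thinning to 2000 UMIs left out 3 cells with gluten and 0 with HC alone. No paired analysis was possible because each diet had 1 library and no test was made. Genes of few UMIs and shares near 0 are limited by 64 and 60 cells.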
